A study of Mus musculus with 6 samples.

Results

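Transcripts of 49 lysosomal genes were followed in 6 bulk RNA-seq libraries of cells washed from the airspaces of mouse lungs by bronchoalveolar lavage. The genes were listed by symbol and cover cathepsins and their inhibitors, glycan and lipid hydrolases, membrane proteins and the MiT transcription factors. All 49 were found by Ensembl identifier among the 48795 genes of the deposited count table, and 47 had at least 10 counts in at least 3 libraries, as did 12627 genes in all. Ctsw and Ctse did not.

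The mice were wild-type C57BL/6 animals of both sexes, aged 8 to 12 weeks. Cadmium chloride (100 ng/kg) or saline was instilled intratracheally, and lavage followed on day 7. The libraries carry the titles CD170, CD171, CD174, CD176, CD177 and CD178, and these titles do not refer to surface antigens. Which mice received cadmium, and which were male or female, is not recorded for any library in the labels used here, so libraries were left ungrouped and groups were not tested. Values are therefore given per library, and differences between libraries are descriptions.

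Lysosomes are acidic compartments in which macrophages break down engulfed material. Hydrolases are delivered there as precursors, cathepsins cut proteins, and further enzymes remove sugars, sulfates, fatty acids and phosphates stepwise. Macrophages that live in the alveoli also take up and degrade surfactant lipid and protein. Tfeb, Tfe3 and Mitf bind E-box motifs in the promoters of many lysosomal genes and raise their transcription.

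Depth ran from 7732244 gene counts (CD174) up to 23599369 (CD178). CD171 and CD174 stood apart from the other libraries. Reads outside annotated features took 16.6% of counts in CD171 and 25.01% in CD174, against 6.49 to 7.29% elsewhere, and ambiguous reads took 9.99% in CD174 and 5.48 to 6.78% elsewhere. Lars2, CT010467.1, Gm26917 and Gm23935 together took 4.29% of gene counts in CD171, 10.8% in CD174 and 0.546 to 1.09% elsewhere. The list of 10 alveolar macrophage markers, all past the filter, summed to between 27133 CPM (counts scaled to library size) in CD171 and 33737 CPM in CD177. The 7 epithelial markers summed to 3330.5 CPM in CD174 and to between 377 and 734 CPM elsewhere. Within that list Sftpc was at 1602 CPM in CD174 and 41.4 to 254 CPM elsewhere, whereas Cdh1 was at 85.3 CPM in CD174 and 70.9 to 85.3 CPM elsewhere. The 5 erythroid genes summed to 2882 CPM in CD170, 2477 in CD178, 1864 in CD171, 1732 in CD176, 330.3 in CD174 and 111 CPM in CD177. In bulk samples, fewer cells of a type and less RNA per cell cannot be told apart.

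The E-box bound by the MiT factors was present in the promoters of several members. Promoter windows of 300 bases, from 250 before to 50 after the annotated start, were taken from the RefSeq table on GRCm38.p6, and 43 of the 49 members matched by symbol. The core CACGTG, which reads the same on both strands, lay in the windows of 12 members (27.9%) and of 8.09% of all 27025 genes in the table. The 12 were Arsa, Ctsa, Ctsd, Ctsf, Ctsl, Gaa, Gla, Glb1, Lamp1, Lgmn, Mcoln1 and Naglu. TCACGTG, searched on both strands and always containing the core, was found in 10 members (23.3%) and 4.29% of genes. TCACGTGA, which contains both shorter motifs, was found in 4 members (9.3%) and 1.12% of genes. With a G required before it and a C after it, this motif was found in 0 of 43 members and 0.37% of genes. At so low a share, 43 members are too few to show a difference from all genes. Member windows were richer in CG than others, with a median of 13 CG steps against 7 in all windows. Among windows with 7 to 19 CG steps, the middle span of the members, 6 of 28 member windows and 9.06% of all 8415 windows held CACGTG. A match is a description of letters and not of a bound site.

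The members with TCACGTGA were Ctsa (chr2:164833703-164833822, plus strand), Ctsd (chr7:142387863-142387982, minus strand), Gla (chrX:134601136-134601255, minus strand) and Mcoln1 (chr8:3500417-3500536, plus strand). They are shown because they carry the longest E-box match among the members. Each line gives 120 bases in the direction of transcription, with every TCACGTGA in capitals. The first match begins at position -13 in Ctsa, -99 in Ctsd, -228 in Gla and -46 in Mcoln1 relative to the start.
Ctsa: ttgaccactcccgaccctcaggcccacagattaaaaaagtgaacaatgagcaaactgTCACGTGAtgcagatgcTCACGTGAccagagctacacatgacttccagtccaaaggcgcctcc
Ctsd: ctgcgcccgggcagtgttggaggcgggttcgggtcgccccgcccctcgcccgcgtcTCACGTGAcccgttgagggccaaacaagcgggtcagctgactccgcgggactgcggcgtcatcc
Gla: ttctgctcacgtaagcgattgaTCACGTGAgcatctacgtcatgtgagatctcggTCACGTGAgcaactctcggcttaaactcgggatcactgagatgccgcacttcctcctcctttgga
Mcoln1: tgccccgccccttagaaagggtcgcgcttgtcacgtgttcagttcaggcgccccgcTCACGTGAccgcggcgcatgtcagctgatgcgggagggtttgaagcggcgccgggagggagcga

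Levels of different members were compared as CPM per kb of annotated exon, because longer transcripts give more reads. Ctss, Psap and Ctsd were the most abundant, with medians of 3437, 2493 and 1738 CPM per kb over the 6 libraries. Ctsz followed at 663 CPM per kb, then Cst3 at 475, Ctsk at 454, Hexa at 451, Cstb at 435, Lamp1 at 358 and Grn at 320.3 CPM per kb. With the length of the longest coding transcript in place of all exon bases, an alternative chosen after seeing the data, the same 10 genes led the order. Arsb was the lowest filtered member at 2.58 CPM per kb, 1332-fold below Ctss. Of the 46 neighbouring pairs in this order, 39 had ranges over the libraries that overlapped. The upper gene was higher in each of the 6 libraries in 11 pairs, which include 4 with overlapping ranges (Ctsz above Cst3, Lipa above Gm2a, Cd63 above Ids and Mitf above Mcoln1). The other 35 pairs changed order in at least 1 library. Ctss was above Psap without overlap (3234 to 4808 against 2138 to 2932 CPM per kb), and Ctsd above Ctsz. Psap and Ctsd overlapped and changed order between libraries, and so did each neighbouring pair from Cst3 down to Ctsb.

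**Figure D1:**
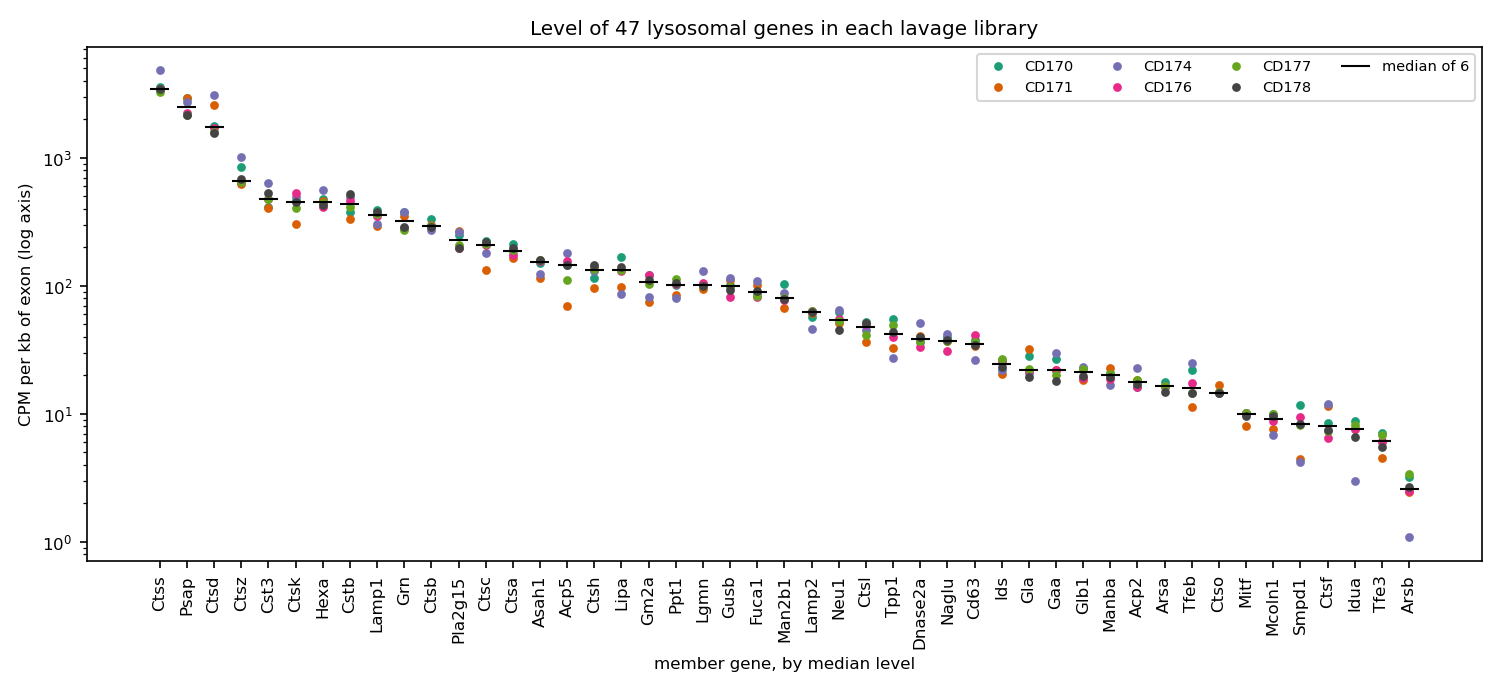
Level of the 47 filtered lysosomal genes in CPM per kb of exon (log axis), ordered by median; each point is 1 library and the black line is the median of 6. Ctss, Psap and Ctsd lie above all other members, with CD174 highest for Ctss and Ctsd.

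Counts of the 49 members summed to 36388 (CD170), 34459 (CD171), 39499 (CD174), 32177 (CD176), 31330.5 (CD177) and 31946 CPM (CD178). The 95% Poisson intervals of these sums, which cover counting error only, were narrower than the gaps between libraries, for example 39348 to 39649 CPM in CD174. The highest sum was 1.26 times the lowest. With libraries scaled by total counts the ratio was 1.12 and CD170 was highest instead of CD174. Psap, Ctss and Ctsd held 44.5 to 54.4% of all member counts, with CD171 at 54.4% and CD174 at 54.1% and the other libraries at 44.5 to 46.9%. These genes differed in where their share was high. Psap had its highest share in CD171 (23.2%) and Ctss in CD174 (16.5%), while Ctsd was high in both, at 17.6% in CD171 and 18.5% in CD174 against 11.4 to 12.4% elsewhere.

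The spread of a gene was measured as its log2 range, the highest minus the lowest library in log2 CPM. A range of 1 or more was found in 7 of the 47 filtered members, beside 50.5% of all filtered genes, and the median range was 0.55 for members and 1.01 for all filtered genes. Members are abundant, so genes of like level were used as well. Among genes with a median of at least 100 CPM, 3 of 33 members and 12.3% of 1924 genes had a range of at least 1, with a median range of 0.58 for these genes. At that level the members' share lies near that of other genes. A range of 2 or more was found in 0 members, beside 25.2% of all filtered genes and 1.2% of genes with at least 100 CPM.

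The 7 were Arsb, Idua, Smpd1, Acp5, Tfeb, Tpp1 and Ctsd, the last with a range of 1.0 that sits on the threshold. Leaving out CD174 left 2, Smpd1 and Acp5, beside 31.0% of all filtered genes. Leaving out CD171 and CD174 left 0, where 16.9% of all filtered genes and 1.25% of those with at least 100 CPM still had such a range. The median range of all 47 members was then 0.33, beside 0.45 for all filtered genes and 0.30 for genes with at least 100 CPM.

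**Figure D2:**
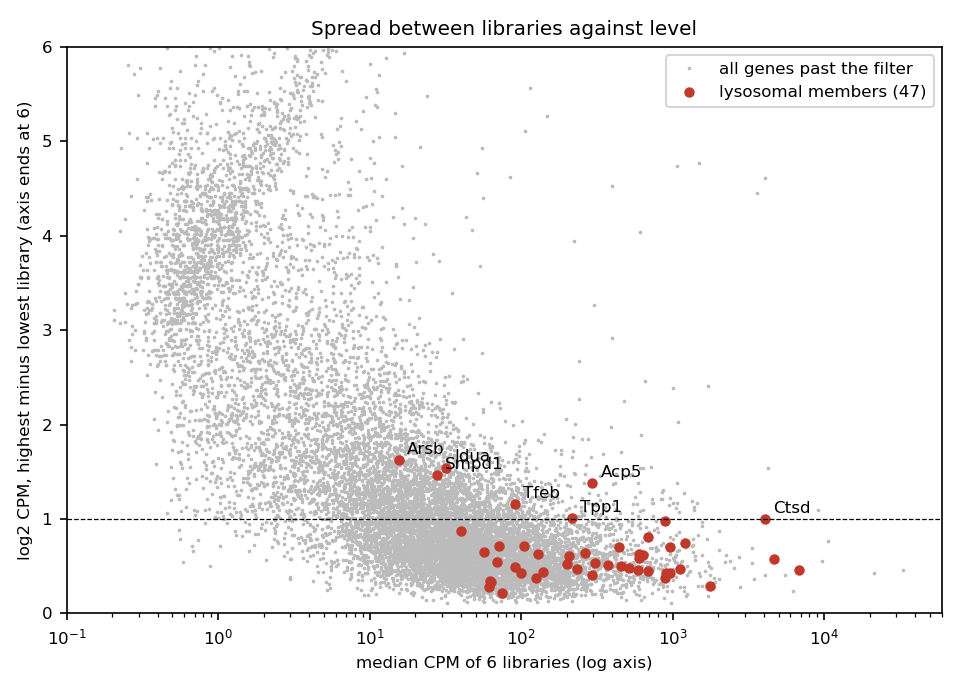
Log2 range over the 6 libraries (vertical axis, ends at 6) against median CPM (log axis) for all filtered genes in grey and the 47 members in red; the dashed line is a range of 1. The 7 named members lie on or above the line and the others lie below it, within the cloud of genes of like level.

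The highest and lowest library differed between members. CD174 was the highest library for 17 members and the lowest for 12, beside 29.9% and 37.2% of all filtered genes. With total counts these numbers turned to 6 highest and 19 lowest. The shares of all filtered genes given here are from the main scaling and were not counted with total counts. Total counts put the median of all genes in CD174 at -0.35 on the log2 scale relative to the other libraries instead of -0.10. Relative to that median of all genes, the members' median in CD174 was 0.12 higher under both scalings. Set against genes with at least 100 CPM, the median of all 47 members differed less, at 0.03 against -0.01. With total counts it was -0.23 against -0.26. The 6 that had CD174 highest under both were Ctss, Ctsz, Lgmn, Ctsd, Acp2 and Dnase2a, while the other 11 (Tfeb, Acp5, Hexa, Glb1, Ctsf, Gaa, Cst3, Gusb, Naglu, Neu1 and Fuca1) were highest in another library with total counts. CD171 was the lowest library for 19 members, beside 23.9% of all filtered genes, and for 14 with total counts. CD170 lay above the median of the other libraries for 37 of 47 members, beside 50.8% of all filtered genes. At 100 CPM or more it did so for 25 of 33 members, beside 62.2% of genes. CD170 was the lowest library for 0 members, beside 10.5% of all filtered genes, and for 1 with DESeq2 size factors or total counts. The median difference of all 47 members in CD170 was 0.16 on the log2 scale. It was 0.01 for all filtered genes and 0.07 for genes with at least 100 CPM. Without CD171 and CD174 the members' median was 0.14. The erythroid sum was also highest in CD170, and its part in this difference was not tested. For 6 of the 47 members the highest or lowest library stood off from the other 5 by more than Dixon's 95% ratio of gap to range, beside 15.5% of all filtered genes. Among genes with at least 100 CPM this held for 3 of 33 members and 11.5% of genes.

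**Figure D3:**
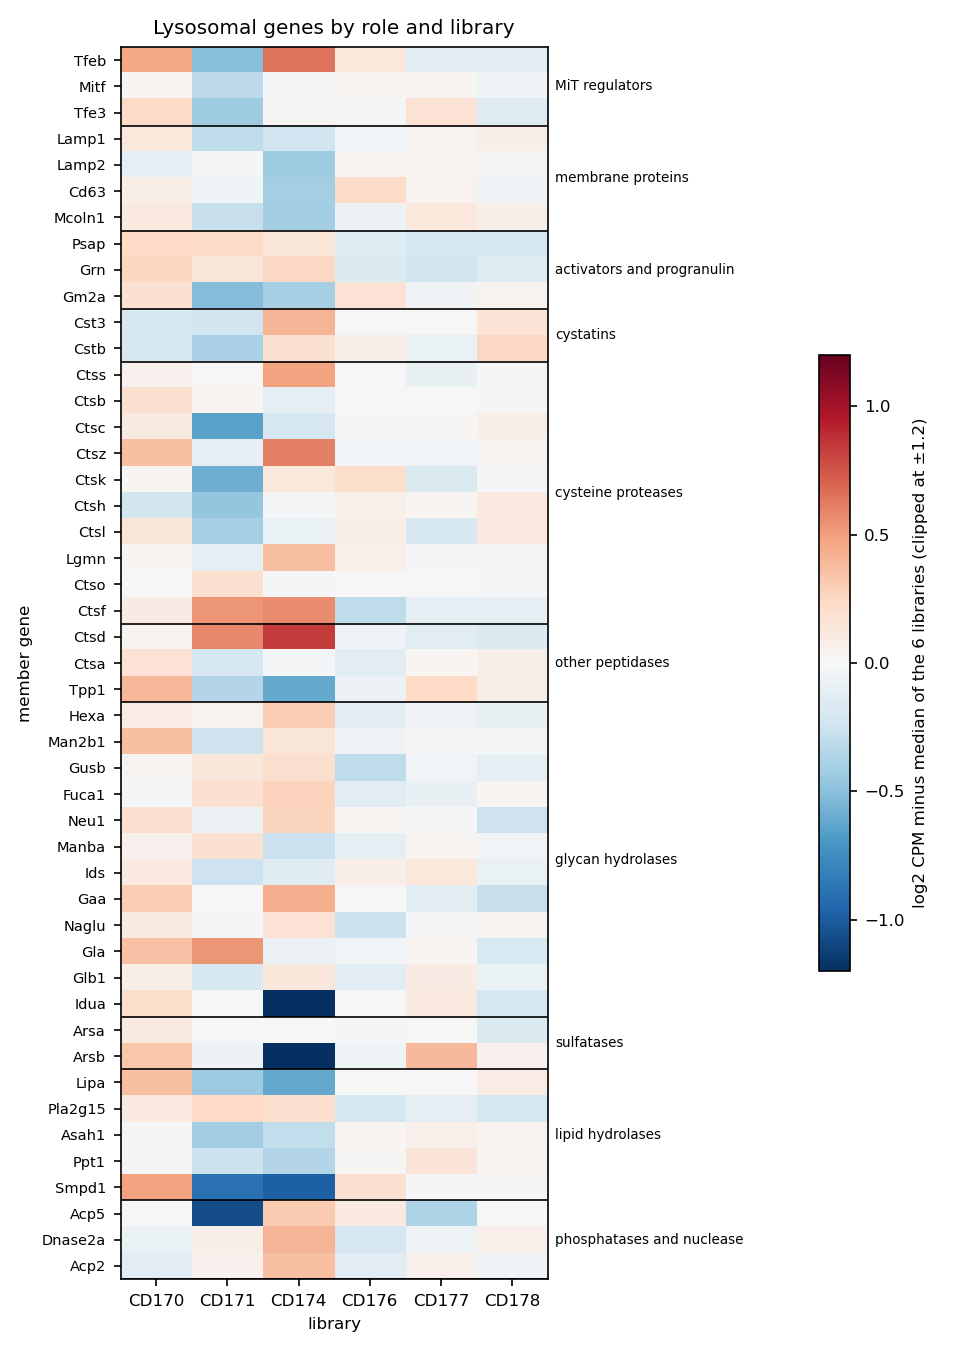
Log2 CPM minus the median of the 6 libraries for each filtered member, grouped by role (red above, blue below, clipped at ±1.2). CD171 and CD174 hold the strongest colours, and columns CD176, CD177 and CD178 are pale.

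The MiT regulators summed to 254 (CD170), 156 (CD171), 261 (CD174), 218 (CD176), 209.5 (CD177) and 194 CPM (CD178). Tfeb, which enters the nucleus when mTORC1 is inactive, had 125 (CD170), 63.7 (CD171), 142 (CD174), 99.0 (CD176), 82.7 (CD177) and 82.8 CPM (CD178), a log2 range of 1.16. Its range was 0.59 without CD171 and CD174. Tfe3, its close relative, had 66.1 (CD170), 42.0 (CD171), 57.0 (CD174), 55.98 (CD176), 63.5 (CD177) and 50.9 CPM (CD178). Mitf, known for its part in melanocytes and osteoclasts, was at 50.02 CPM in CD171 and between 60.1 and 63.3 CPM in the other libraries, a log2 range of 0.34. CD171 was thus the lowest library for all 3. Per kb the levels of these genes were 16.0 (Tfeb), 10.1 (Mitf) and 6.10 CPM (Tfe3).

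Membrane proteins had log2 ranges of 0.43 to 0.63. Lamp1, a heavily glycosylated protein of the lysosomal membrane, had 1049 (CD170), 777 (CD171), 811 (CD174), 937 (CD176), 980.4 (CD177) and 1009 CPM (CD178). Lamp2, which also serves chaperone-mediated autophagy, was at 442 CPM in CD174 and at 549 to 607 CPM in the others, a range of 0.46 that was 0.73 with total counts. Cd63, a tetraspanin of late endosomes, had a lowest value of 97.8, a median of 130.2 and a highest value of 152 CPM. Mcoln1, a calcium release channel, ran from 51.7 CPM in CD174 to 75.4 CPM in CD177, with a median of 69.3 CPM. Lamp2, Cd63 and Mcoln1 were each lowest in CD174, and Lamp1 in CD171, or in CD174 with total counts.

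Psap encodes the precursor of the saposins, which present sphingolipids to their hydrolases. It had 8045 (CD170), 8008 (CD171), 7513 (CD174), 6170.1 (CD176), 5866 (CD177) and 5934 CPM (CD178). Grn, progranulin, had 1320.1 (CD170), 1222 (CD171), 1319 (CD174), 987 (CD176), 953 (CD177) and 1003 CPM (CD178). Both had their lowest value in CD177 (Psap in CD178 with total counts), and their log2 ranges of 0.46 and 0.47 were as large without CD171 and CD174 (0.45 and 0.47). Gm2a, the activator that lifts GM2 ganglioside for Hexa, ran differently, from 309 CPM in CD171 to 501 CPM in CD170 with a median of 442 CPM.

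Cystatins inhibit cysteine cathepsins. Cst3, the secreted cystatin C, ran from 517 CPM in CD171 to 798 CPM in CD174 with a median of 602 CPM, and Cstb, the cytosolic cystatin B, from 200.3 CPM (lowest in CD171) up to 312 CPM (highest in CD178) around a median of 262 CPM. The sum of the pair was 1.53 times as high in CD174 as in CD171.

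Of the 11 cysteine protease genes, 10 passed the filter and none had a log2 range of 1 or more. Such a range was found in 50.5% of all filtered genes and in 12.3% of those with at least 100 CPM. Ctss, which trims the invariant chain of MHC class II, had 4825 (CD170), 4654 (CD171), 6529 (CD174), 4681 (CD176), 4392 (CD177) and 4628 CPM (CD178). CD174 stood alone. The range of 0.57 was 0.29 with total counts and 0.13 without CD171 and CD174. Ctsk, a collagenolytic cathepsin of osteoclasts whose gene lies 17423 bases from Ctss on chromosome 3, was highest in CD176 and lowest in CD171. Ctsk had 696 (CD170), 455 (CD171), 749 (CD174), 796 (CD176), 607 (CD177) and 676 CPM (CD178). Ctsb, an endopeptidase and carboxypeptidase, had a range of 0.29, but of 0.52 with total counts, with 2012 (CD170), 1809 (CD171), 1640.2 (CD174), 1768 (CD176), 1761 (CD177) and 1746 CPM (CD178).

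Ctsc, which activates granule serine proteases, had 1304 (CD170), 778 (CD171), 1051 (CD174), 1201 (CD176), 1221 (CD177) and 1272 CPM (CD178). Ctsz, a carboxypeptidase, had 1226 (CD170), 892 (CD171), 1454 (CD174), 933 (CD176), 936 (CD177) and 975 CPM (CD178). CD171 was the lowest library for Ctsc, Ctsk and Ctsz, and also for Ctsh, an aminopeptidase (436 to 655 CPM), for Ctsl, an endopeptidase (235 to 341 CPM), and for Lgmn. Lgmn, the asparaginyl endopeptidase that matures several cathepsins, was at 300.3 CPM in CD174 and 217 to 245 CPM elsewhere, a range of 0.47 that was 0.26 with total counts.

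Low cysteine cathepsins went other ways. Ctsf had 43.1 (CD170), 58.3 (CD171), 59.7 (CD174), 32.5 (CD176), 37.1 (CD177) and 37.5 CPM (CD178), so that CD171 and CD174 were highest. Ctso was at 86.1 CPM in CD171 and 74.2 to 75.5 CPM in the other 5 libraries. Its range of 0.21 was the smallest of the filtered members, but with total counts it was 0.42, and 16 members had smaller ranges. Ctsw, known from cytotoxic lymphocytes, had 0 counts in CD170 and CD174 and at most 6 in any library, which is 0.392 CPM in CD176. A count of 0 allows up to 3 counts as a one-sided limit, or 0.447 CPM in CD174. The 8 T and NK cell markers were low as well, at 1.27 to 8.79 CPM in sum, with Nkg7 and Klrb1c at 0 counts in every library.

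Among the other peptidases, Ctsd, the aspartic cathepsin D, had 4192 (CD170), 6078 (CD171), 7314 (CD174), 3979 (CD176), 3732 (CD177) and 3657 CPM (CD178). CD171 and CD174 were both above all others, and the range fell to 0.20 without them. Of the exon bases of Ctsd, 34.4% are shared with Gm49369, annotated on the same strand, which had 0 counts in every library. Ambiguous reads, which such overlaps can give, were also most frequent in CD174, at 9.99%, and their part in this pattern was not tested. Tpp1, a tripeptidyl peptidase, had 283 (CD170), 169 (CD171), 141 (CD174), 204 (CD176), 253 (CD177) and 226 CPM (CD178), lowest in the 2 libraries where Ctsd was highest. Ctsa, which protects Glb1 and Neu1, ran from 771 CPM in CD171 to 1001 CPM in CD170, with a range of 0.38, and was lowest in CD174 with total counts. Ctse, an aspartic protease, had 2 counts in CD170, 6 in CD177 and 0 in the others.

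The glycan hydrolases were steady as a group, with a median log2 range of 0.47, and their summed CPM differed at most 1.23-fold. Hexa, the alpha subunit of beta-hexosaminidase, had 957 (CD170), 924 (CD171), 1112 (CD174), 827 (CD176), 877 (CD177) and 848 CPM (CD178), a range of 0.43 that was 0.18 with total counts. Glb1, lysosomal beta-galactosidase, had 67.1 (CD170), 55.3 (CD171), 69.7 (CD174), 57.6 (CD176), 67.7 (CD177) and 59.6 CPM (CD178). Idua, which removes iduronic acid from glycosaminoglycans, was the exception, with 37.1 (CD170), 32.2 (CD171), 12.7 (CD174), 31.8 (CD176), 34.6 (CD177) and 27.9 CPM (CD178). The value in CD174 rests on 85 counts. Its range was 1.54, and 0.41 without CD171 and CD174.

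The other glycan enzymes had log2 ranges of 0.38 to 0.71. They comprise Man2b1 (539 to 824 CPM) and Manba (117 to 158 CPM), which cleave mannose, Gusb for glucuronic acid (369 to 521 CPM), Fuca1 for fucose (267 to 354 CPM) and Neu1 for sialic acid (169 to 243 CPM). Gaa, which degrades glycogen, ran from 86.9 CPM in CD178 to 142 CPM in CD174, and Gla, which acts on globotriaosylceramide, from 63.3 CPM in CD178 to 104 CPM in CD171. Of the heparan sulfate enzymes, Ids, a sulfatase grouped here with the glycan hydrolases, ran from 105 to 136 CPM. Naglu ran from 83.0 to 112 CPM.

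The arylsulfatases Arsa and Arsb differed from each other. Arsa, which removes sulfate from cerebroside sulfate, had 65.8 (CD170), 61.2 (CD171), 60.9 (CD174), 59.97 (CD176), 61.2 (CD177) and 54.3 CPM (CD178). Arsb, which acts on dermatan sulfate, had the largest range of the filtered members (1.62), with 19.6 (CD170), 14.8 (CD171), 6.55 (CD174), 15.0 (CD176), 20.4 (CD177) and 16.1 CPM (CD178). The value in CD174 rests on 44 counts (95% Poisson interval 4.76 to 8.80 CPM) and lies below the intervals of all other libraries. Of the exon bases of Arsb, 32.3% are shared with other genes. Gm25534, Gm26527 and Mir5624 are annotated in its span, and which of them share these bases was not resolved. The part of this overlap was not tested.

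Among lipid hydrolases, Lipa and Smpd1 were lowest in CD174 and next lowest in CD171. Lipa, the acid lipase of cholesteryl esters and triglycerides, had 1147 (CD170), 662 (CD171), 584 (CD174), 889.8 (CD176), 897 (CD177) and 951 CPM (CD178). Smpd1, acid sphingomyelinase, had 38.8 (CD170), 14.9 (CD171), 14.0 (CD174), 31.4 (CD176), 27.5 (CD177) and 28.0 CPM (CD178). Asah1, acid ceramidase (387 to 539 CPM), and Ppt1, which removes palmitate from proteins (294 to 418 CPM), were also lowest in CD171 or CD174. Pla2g15, the lysosomal phospholipase A2 that degrades surfactant phospholipid in alveolar macrophages, was highest there instead, with 745 (CD170), 807 (CD171), 789.5 (CD174), 593 (CD176), 631 (CD177) and 593 CPM (CD178).

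Acp5, tartrate-resistant acid phosphatase, had 296 (CD170), 141 (CD171), 367 (CD174), 319 (CD176), 227 (CD177) and 293 CPM (CD178). CD171 was lowest and CD177 next lowest, and the range of 1.38 fell to 0.48 without CD171 and CD174. Acp2, another acid phosphatase, was at 118 CPM in CD174 and 83.7 to 95.7 CPM elsewhere, a range of 0.49 that was 0.26 with total counts. Dnase2a, the acid nuclease that digests DNA of engulfed cells, ran from 181 CPM in CD176 to 274.9 CPM in CD174, a range of 0.60 that was 0.35 with total counts. Of its exon bases, 30.0% are shared with Mast1, which was at 0.39 to 2.39 CPM.

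**Figure D4:**
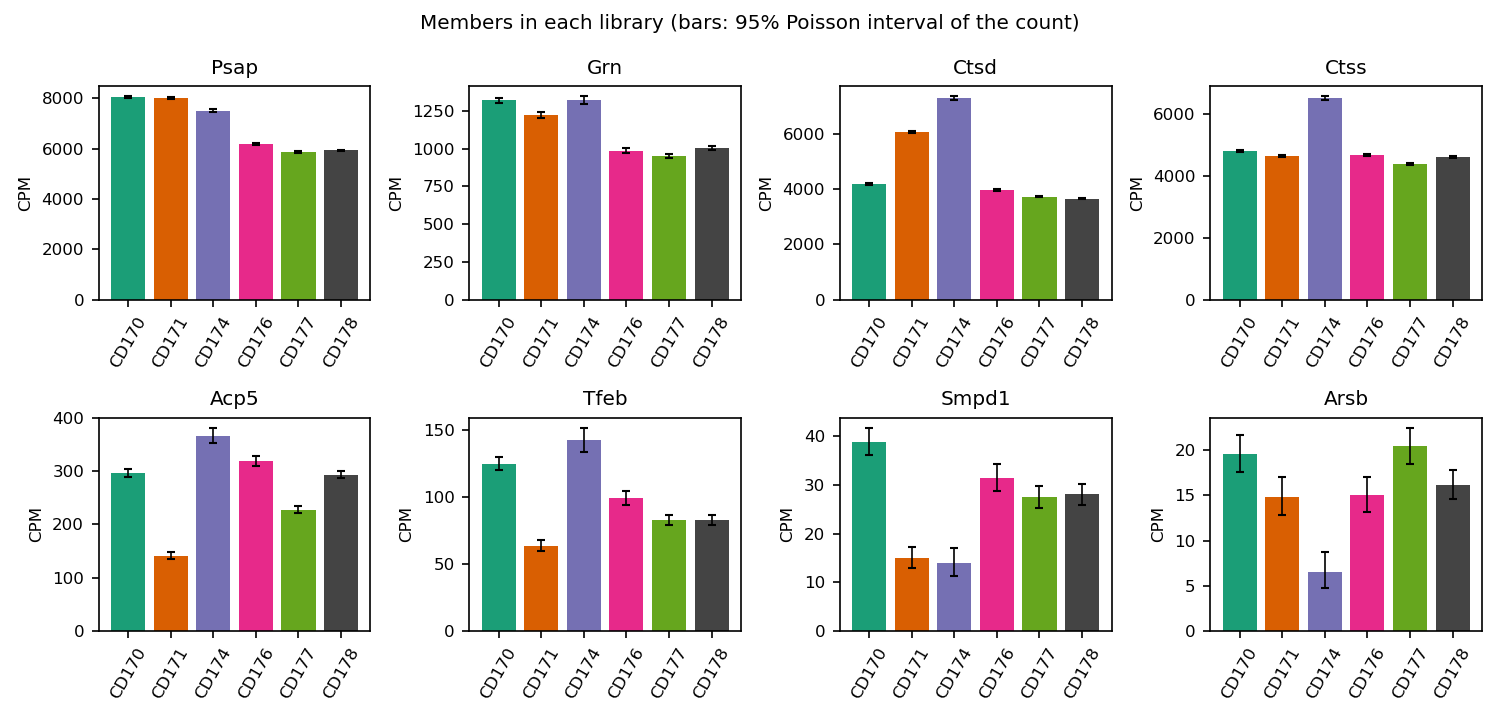
CPM of 8 members in each library (bars start at 0; error bars are 95% Poisson intervals of the count, counting error only). Ctss is high in CD174 alone, Ctsd in CD171 and CD174, Acp5 and Tfeb are lowest in CD171, Smpd1 is low in CD171 and CD174, and Arsb in CD174.

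The direction in CD174 went with exon length. Of the 12 filtered members with under 3000 exon bases, 11 were above the median of the other libraries in CD174 and their median log2 difference was 0.33. Of all filtered genes that short, 57.6% were above. Among those with at least 100 CPM, 10 of 11 members and 72.7% of 556 genes were above. The median was -0.04 for the 17 members of 3000 to 5000 bases and -0.13 for the 18 of 5000 bases or more. Of these groups, 7 and 6 members were above. All these values are from the main scaling. Over all lengths, 24 of the 47 members were above in CD174, and 17 with total counts. Across the 47 members, which share the library and its depth, Spearman's rho between the log2 difference in CD174 and exon length was -0.415. The same value was -0.186 over all 12599 filtered genes with a length and -0.418 over the 1924 with at least 100 CPM. Over members the value was 0.187 in CD170, -0.0763 in CD171, -0.0215 in CD176, 0.387 in CD177 and 0.0673 in CD178. Over the 1924 genes it was 0.381, 0.122, -0.135, 0.345 and -0.317 in the same library order. A relation to length was thus not particular to CD174. The epithelial marker sum was highest (3330.5 CPM) and gene counts fewest in CD174 as well, and the part of either in these differences was not tested.

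**Figure D5:**
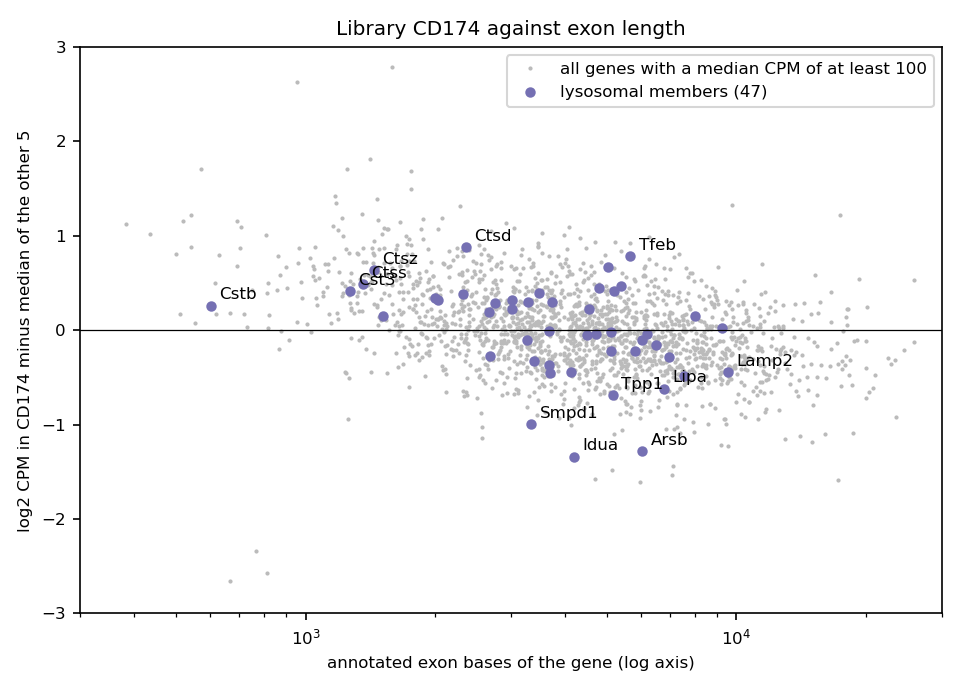
Log2 CPM in CD174 minus the median of the other 5 libraries against annotated exon bases (log axis), for the 47 members in purple and all genes with a median of at least 100 CPM in grey. Short members such as Ctss, Ctsz and Cst3 lie above 0 and Lipa, Tpp1 and Lamp2 below it, within the grey cloud.

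Spread and level were also set against the CACGTG core. The 12 with it had a median log2 range of 0.50 and 1 range of at least 1. The 31 filtered members with a window but no core had a median of 0.60 and 6 such ranges. Among all filtered genes 50.5% had such a range, and 12.3% of those with at least 100 CPM. Median levels of members with and without the core were 29.7 and 79.9 CPM per kb. Their ranges of 8.00 to 1738 and 2.58 to 3437 CPM per kb overlap.

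A further list of 54 lysosomal genes was described in the same way. Of these, 53 matched by symbol and 46 passed the filter. Their median log2 range was 0.65, and 11 (23.9%) had a range of at least 1, beside 50.5% of all filtered genes. Of the 24 with at least 100 CPM, 3 had such a range, beside 12.3% of genes at that level. Among the most abundant by CPM were Laptm5, a lysosomal membrane protein of blood cells (2113 to 3112 CPM), Sort1, a sorting receptor (781 to 1172 CPM), Npc2, a cholesterol carrier (689 to 865 CPM), and Cd68, a macrophage glycoprotein (436 to 889 CPM, lowest in CD171). The largest ranges were those of Mfsd8, Rragd, Sgsh, Plbd1 and Ctns. Mfsd8, a membrane transporter protein, had no count in CD174 but 8.72 to 16.1 CPM elsewhere. Ctns, the cystine exporter, had 22.0 CPM in CD174 and 48.1 to 57.6 CPM elsewhere. Sgsh, Rragd and Plbd1 were low throughout, with at most 1.49, 7.89 and 5.05 CPM. The steadiest were Rragc, a GTPase that recruits mTORC1 (186 to 210.1 CPM), M6pr, a receptor that delivers hydrolases (519 to 610.1 CPM), and Cln3 (66.3 to 78.9 CPM). Without CD171 and CD174, 2 of the 46 had a range of at least 1, beside 16.9% of all filtered genes.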

How the data were processed

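Reads were counted per gene, and the authors deposited these raw counts without normalization. The submitters' processing notes list HTSeq 0.11.2, STAR 2.7.1a, Trim Galore 0.6.2 and bcl2fastq 2.18.0.12, with the GRCm38 build. The annotation release and the strand setting were not stated there. Summary rows that name no gene (18.8 to 46.0% of all counts) were removed. GENCODE M21 supplied symbols, positions and exon lengths for 48349 of 48795 identifiers, matched without version.

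Scaling used TMM in edgeR 4.0.16 (R 4.3.3). Log2 CPM had a prior count of 2. The filter required 10 or more counts in 3 or more libraries. Other steps ran in Python 3.11.15 (with scipy 1.17.1, pandas 2.3.3, matplotlib 3.10.9 and numpy 2.4.6). The range measure was tested on simulated data. Intervals cover counting error only, since reads carry no molecular identifiers. As alternatives, libraries were scaled by total counts or by size factors from DESeq2 1.42.0, the filter was dropped, the prior was set to 0.5, and libraries were left out. A planned comparison of protein sequences is not analysed here.

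Members and lists were chosen with earlier results of these data known. Values for every library, or the outlying library with the range of the rest, were given for the 10 members highest in CPM, the 10 largest and 5 smallest ranges, the MiT regulators, members failing the filter and those past Dixon's ratio. Among further lysosomal genes, the 5 highest in CPM and the 5 largest and 3 smallest ranges were named, except for a gene that is not reported here. Pla2g15 and the 4 genes summed for read quality were chosen after their values were seen.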

Additional observations from a re-analysis of the deposited data

Results flagged for a closer look

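For each of the 47 filtered members and 11 summed lists, the gap between the highest or lowest library and its nearest neighbour was set against Dixon's 95% critical ratio for 6 values. Chance marks about 1 in 20 such groups, and 6 of 58 were past the ratio, all of them members. Of all filtered genes, 15.5% were past it. The libraries are not replicates of a group. CD174 was the highest library for Ctss (6529 CPM), Lgmn (300.3 CPM) and Acp2 (118 CPM), and the lowest for Lamp2 (442 CPM). CD171 was the lowest library for Mitf (50.02 CPM) and the highest for Ctso (86.1 CPM). With total counts, Ctss and Lamp2 were still past the ratio and Lgmn, Acp2, Mitf and Ctso were not. With DESeq2 size factors Lamp2 alone of the 6 was no longer past it. Sums over role groups were not past the ratio.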

How the results depend on the processing

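No paired analysis was possible because the labels assign libraries to no group. The number of members with a log2 range of at least 1 was 7, beside 50.5% of all filtered genes. It was 6 with DESeq2 size factors (beside 50.4%), 6 with total counts (beside 53.0%) and 7 with a prior count of 0.5 (beside 50.7%). With no filter it was 9, beside 62.6% of genes, where Ctsw, Ctse and Lipa joined and Ctsd left. Leaving out 1 library gave 2 to 6, beside 31.0 to 47.4% of genes. Leaving out CD171 and CD174 gave 0, beside 16.9%. Ranges of at least 2 numbered 0 except for 1, Ctsw, with no filter. The median log2 range of 0.55 was 0.60 with total counts, 0.57 with no filter, 0.45 to 0.53 with 1 library left out, and 0.33 without CD171 and CD174. The library median farthest from the others, 0.16 for CD170, was 0.15 with DESeq2 size factors or with no filter, -0.23 (CD174) with total counts, -0.25 (CD171, without CD176) to 0.13 with 1 library left out, and 0.14 without CD171 and CD174. The highest sum over the lowest was 1.26, and 1.29 with DESeq2 size factors, 1.12 with total counts, 1.23 with no filter, 1.16 to 1.27 with 1 library left out and 1.16 without CD171 and CD174. CD174 was the highest or lowest library for 29 members; the most frequent library held 25 with total counts and 30 to 36 with 1 library left out. Total counts took Ctsd and Tfeb below a range of 1 and put Lipa above it, and DESeq2 size factors took Tpp1 below it. Total counts moved the range of 11 members by over 1.5 times, up for Ctso, Ctsb, Lamp2, Mcoln1 and Ppt1 and down for Hexa, Ctss, Lgmn, Acp2, Dnase2a and Fuca1. Apart from fewer libraries or more genes, the cause was not tested. Ctsw and Ctse had no more than 6 counts in any library, and their ranges rest on these few counts.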

Other observations

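For 3 members chosen after their values were seen, the widest gap between the 6 values lay between CD170, CD171 and CD174 on one side and CD176, CD177 and CD178 on the other. How often this split occurs among all filtered genes was not counted, so its background share is not known. Psap was at 8045 (CD170), 8008 (CD171) and 7513 CPM (CD174), and at 6170.1 (CD176), 5866 (CD177) and 5934 CPM (CD178). In the same library order Grn was at 1320.1, 1222, 1319, 987, 953 and 1003 CPM, and Pla2g15 at 745, 807, 789.5, 593, 631 and 593 CPM. With total counts this split was not kept for Psap, where CD174 (6525 CPM) lay nearer to CD176 (6410.5 CPM) than to CD170 (8168 CPM), or for Pla2g15, where CD174 (686 CPM) lay nearer to CD177 (665 CPM) than to CD170 (756 CPM). For Grn the widest gap then lay between CD170 (1340.3 CPM) and CD171 (1227 CPM). No test was made, since the labels used here put no library in a group.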
